A study of Homo sapiens with 5 samples.

Results

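The genes described here code for the mismatch repair proteins MSH6, MSH3, PMS2, PMS1 and MLH3. They were picked by name, as the 5 rows of the normalized count table with these symbols, out of 26364 listed names. All 5 were listed, and all 5 passed the filter on low counts (a mean normalized count of at least 10), which 11313 names did in all. Messenger RNA was sequenced from IMR-90, a line of normal fibroblasts from human lung, 24 hr after siRNA transfection. The 2 Ctr-KD libraries came from cells given a control siRNA against luciferase, and the 3 NSD2-KD libraries from cells given NSD2-1, NSD2-2 or NSD2-3, siRNAs directed to different stretches of the coding region of NSD2. Each NSD2 siRNA was used in a single library, so siRNA and replicate cannot be told apart within NSD2-KD cells. NSD2, a histone H3 lysine 36 methyltransferase also known as WHSC1 or MMSET, is the gene whose loss the study tested in proliferating fibroblasts.

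Mismatch repair corrects base mismatches and small loops that replication leaves behind. A MutS dimer finds the lesion: MSH6 and MSH3 are alternative partners of a common MutS subunit, MSH6 for single mismatches and short loops and MSH3 for longer loops. A MutL dimer is then recruited, in which PMS2, PMS1 and MLH3 are alternative partners of a common MutL subunit. PMS2 and MLH3 carry an endonuclease that nicks the strand to be repaired, while the role of PMS1 is less clear. MSH6 also has a PWWP domain that binds trimethylated H3 lysine 36. Excision by EXO1, strand protection by RPA, resynthesis by DNA polymerase δ with PCNA and its loader RFC, and sealing by LIG1 complete the repair.

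In GRCh37, the same assembly as the hg19 used by the authors, the canonical MSH6 transcript has 10 exons on the plus strand of chromosome 2, from 48010284 to 48034092. MSH3 has 24 exons on the plus strand of chromosome 5 (79950471 to 80172634) and PMS1 has 13 on the plus strand of chromosome 2 (190649176 to 190742355). PMS2 has 15 exons on the minus strand of chromosome 7 (6010556 to 6048680) and MLH3 has 13 on the minus strand of chromosome 14 (75480478 to 75518170). The promoters, taken from 250 bases before to 50 bases after each start, were searched on both strands for E2F motifs (TTTCCCGC, TTTGGCGC, TTTCGCGC or TTTGCCGC), CHR elements (TTTGAA or TTCGAA) and CCAAT. E2F factors and the RB family bind such sites in genes that are active around S phase. MSH6, MSH3 and PMS2 held an E2F motif, and PMS1 and MLH3 did not. Of 19863 promoters of protein-coding genes, 4.36% held one. CCAAT was present in MSH6, PMS2 and PMS1 (36% of all promoters), and none of the 5 genes held a CHR element (12.8% of all promoters). The stretches of MSH6 and PMS2 with the E2F motif are printed here 5′ to 3′ on the strand of the gene, with the motif in capitals, so that the sites in these genes can be set beside their values. A match is a description of the letters and not evidence of binding.
MSH6: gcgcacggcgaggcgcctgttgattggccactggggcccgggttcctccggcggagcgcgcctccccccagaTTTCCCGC
PMS2: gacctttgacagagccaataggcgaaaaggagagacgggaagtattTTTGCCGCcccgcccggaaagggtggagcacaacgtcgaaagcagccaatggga
The MSH6 stretch is chr2:48010215-48010294 and ends with its motif, which begins 3 bases after the first transcribed base. The PMS2 stretch is chr7:6048727-6048826 on the minus strand.

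Reads on genes ranged from 2473691 to 2845063 per library, and in 100% of the values above 0 the normalized count was a whole multiple, within 0.01, of what 1 read is worth, which is 0.92 to 1.09 normalized counts. Over the 5 libraries MSH6 was read 602 times, MSH3 329, PMS1 231, MLH3 164 and PMS2 136 times. All 10 fibroblast markers looked up, among them COL1A1, passed the filter. PTPRC and CD3E (immune cells), PECAM1 and CDH5 (endothelial cells) and KRT5, KRT14, SFTPC and SFTPB (epithelial cells) had no read in any library. Other markers on the same lists were read in every library. CD68 (immune) was at 60.5 to 102.7 normalized counts, TEK (endothelial) at 97.6 to 150 and CLDN4 (epithelial) at 8.57 to 24.0. CD68, TEK and CLDN4 passed the filter and made up most or all of the sum of their lists. The summed levels of these lists were 60.5 to 102.7 (immune), 99.6 to 156 (endothelial) and 8.57 to 24.0 (epithelial) normalized counts over the 5 libraries. Between Ctr-KD replicates the chi-square of the reads was 1.05 per degree of freedom, near counting noise, and between all other pairs of libraries it was 4.11 to 5.65. The Ctr-KD replicates were kept as 2 samples because the study's methods name them as biological replicates, but their spread may be mostly technical. NSD2 itself, listed as WHSC1, was at 463 and 443 normalized counts in the Ctr-KD libraries and at 90.2, 81.9 and 87.9 in the NSD2-KD libraries, a log2 difference of -2.37 (SE 0.12, adjusted p = 0.000464 from limma).

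Of the 5 genes, MSH6 was the one whose NSD2-KD libraries all lay below both Ctr-KD libraries. Its normalized counts were 165 and 159 in Ctr-KD cells and 100.3, 78.6 and 90.8 with NSD2-1, NSD2-2 and NSD2-3. The groups did not overlap, and 13.9% of all tested genes also had every NSD2-KD library below both Ctr-KD libraries. MSH6 stood at 61.9%, 48.5% and 56.0% of the Ctr-KD mean with the 3 siRNAs. The means were 162 ± 3.78 (SD, n = 2) and 89.9 ± 10.9 (SD, n = 3), a log2 difference of -0.85 (SE 0.15, 95% interval -1.21 to -0.49). In the limma fit across 11313 genes the unadjusted p was 0.000528, the 35th lowest, and the adjusted p was 0.164, so MSH6 did not pass the threshold of 0.05. The adjusted p stood at 0.0553 with DESeq2, 0.123 with edgeR's quasi-likelihood test and 0.118 with limma-voom, and ranged from 0.0553 to 0.9999 over 16 alternatives, with a lower value in NSD2-KD cells in all 16. The values of 0.9989 and 0.9999 came from the fits with 1 Ctr-KD library left out, in which the lone control is assumed to vary like the NSD2-KD libraries and no gene was called, NSD2 itself included (adjusted p = 0.0926 and 0.0788 from limma). Among the other alternatives the highest adjusted p of MSH6 was 0.326, from limma without the trend. The SD of MSH6 in the Ctr-KD pair (2.33% of the mean) was below the 7.81% that counting alone gives. The exact Poisson intervals on the pooled reads, which cover counting error only, were 145 to 181 normalized counts in Ctr-KD cells and 80.1 to 101.9 in NSD2-KD cells. In bulk RNA, fewer cells that transcribe MSH6 and less MSH6 mRNA per cell cannot be told apart.

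MSH3, the other MutS partner, was at similar levels in both groups. It had 70.5 and 53.5 normalized counts in Ctr-KD cells and 78.2, 63.4 and 58.6 in NSD2-KD cells. The range of the 2 Ctr-KD libraries held the NSD2-2 and NSD2-3 values, and NSD2-1 was above both. The log2 difference was 0.11 (SE 0.21, adjusted p = 0.912 from limma), and its 95% interval, -0.37 to 0.58, still allows a change to between 0.776 and 1.49 times the Ctr-KD level.

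Among the MutL partners, PMS2 had 29.5 and 24.7 normalized counts in Ctr-KD cells and 27.6, 30.6 and 22.5 in NSD2-KD cells. NSD2-2 was above and NSD2-3 below both Ctr-KD libraries, and the log2 difference was -0.017 (SE 0.24, adjusted p = 0.990 from limma, 95% interval -0.58 to 0.54). PMS1 had 51.4 and 47.3 in Ctr-KD cells and 47.8, 44.8 and 37.1 in NSD2-KD cells. The NSD2-2 and NSD2-3 libraries were below both Ctr-KD libraries and NSD2-1 lay between them, with a log2 difference of -0.19 (SE 0.20, adjusted p = 0.830 from limma, 95% interval -0.65 to 0.26). MLH3 had 35.2 and 24.7 in Ctr-KD cells and 39.6, 32.8 and 29.3 in NSD2-KD cells. NSD2-1 was above both Ctr-KD libraries and the other two lay between them, with a log2 difference of 0.18 (SE 0.25, adjusted p = 0.876 from limma, 95% interval -0.39 to 0.76). For PMS2, PMS1 and MLH3 the mean reads per library gave counting errors of 14.1% to 19.2% of the mean. Changes of that size, and larger ones, could be missed at this depth. The 95% intervals allow 0.671 to 1.455 times the Ctr-KD level for PMS2, 0.636 to 1.20 for PMS1 and 0.761 to 1.69 for MLH3. A p that misses the threshold does not show that these levels were equal.

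**Figure D1:**
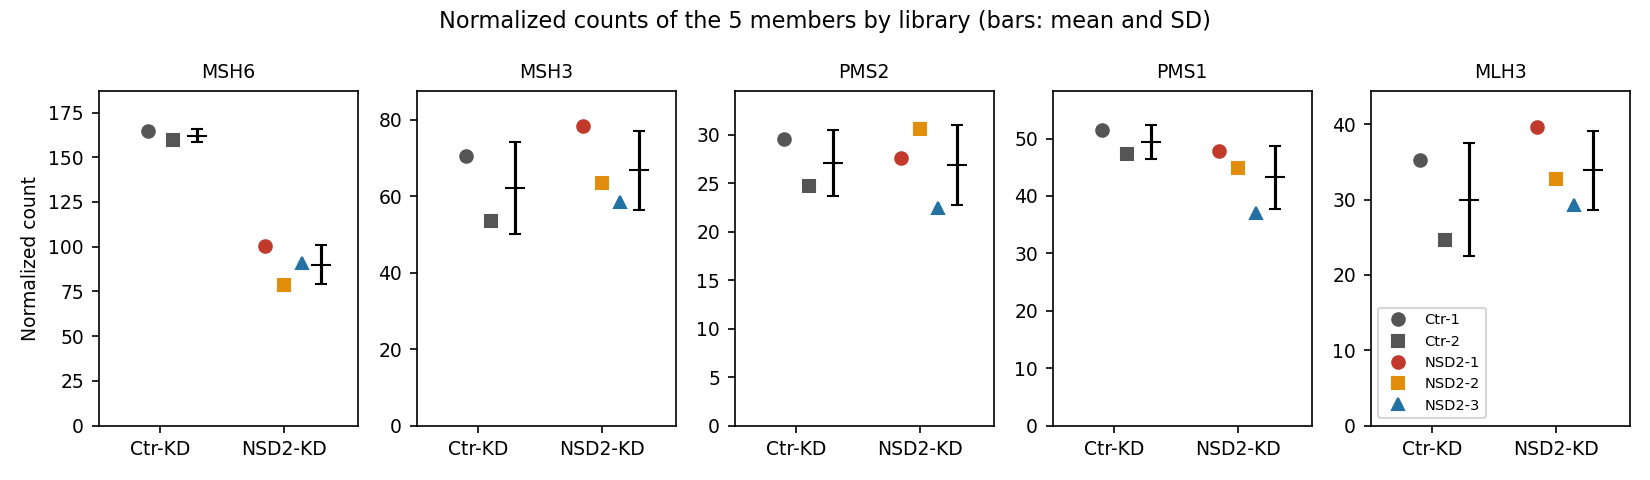
Normalized counts (y axis, from 0) of MSH6, MSH3, PMS2, PMS1 and MLH3 in the 2 Ctr-KD and 3 NSD2-KD libraries; points are libraries, and the horizontal mark with whiskers is the mean with its SD. MSH6 at 78.6 to 100.3 in NSD2-KD cells lies below 159 and 165 in Ctr-KD cells, as do 13.9% of all tested genes. The groups overlap for the other 4 genes.

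By the test, 0 of the 5 genes were called at an adjusted p under 0.05 with limma, edgeR, DESeq2 or limma-voom. Over all tested genes limma called 0.053% lower and 0.0354% higher, that is 6 and 4 genes, and the split was 6 and 8 after quantile normalization. DESeq2 called 0.404% lower and 0.103% higher of its 10655 genes with an adjusted p. edgeR called 0.0972% lower and 0.0442% higher, and limma-voom 0.0619% and 0.0265%. At an unadjusted p under 0.05, 1 of 5 was lower (MSH6) and 0 were higher, against 4.99% and 4.19% of all genes. All 3 NSD2-KD libraries were below both Ctr-KD libraries for 1 of the 5 and for 13.9% of all tested genes. The median log2 difference of the 5 genes was -0.017, beside -0.0089 over all tested genes. Summed over MSH3, PMS2, PMS1 and MLH3, the normalized counts were 168 ± 25.8 (SD, n = 2) in Ctr-KD and 171 ± 22.9 (SD, n = 3) in NSD2-KD cells. With MSH6 added, the sums were 331 ± 29.6 (SD, n = 2) and 261 ± 29.1 (SD, n = 3).

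Since MSH6 and MSH3 take the place of each other in the MutS dimer, their ratio was taken within each library, as log2 of the ratio of normalized counts + 1. MSH6 over MSH3 was 1.21 and 1.56 in the Ctr-KD libraries and 0.35, 0.31 and 0.62 with NSD2-1, NSD2-2 and NSD2-3. The highest NSD2-KD value was below the lowest Ctr-KD value, which corresponds to 2.32 and 2.94 MSH6 counts per MSH3 count against 1.24 to 1.54. The mean difference was -0.96 on the log2 scale, and the exact two-sided permutation test gave p = 0.1, the smallest that 2 against 3 libraries allow. PMS2 over PMS1 was -0.78 and -0.91 in Ctr-KD and -0.77, -0.54 and -0.70 in NSD2-KD cells. Here too the groups did not overlap, with every NSD2-KD value above both Ctr-KD values, the lowest of them only just. The mean difference was 0.18, with p = 0.2 in the same exact permutation test. How often the ratios of other gene pairs separate in this way was not tested. Adjusted over these 2 ratios, neither p could pass 0.05 in this design.

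**Figure D2:**
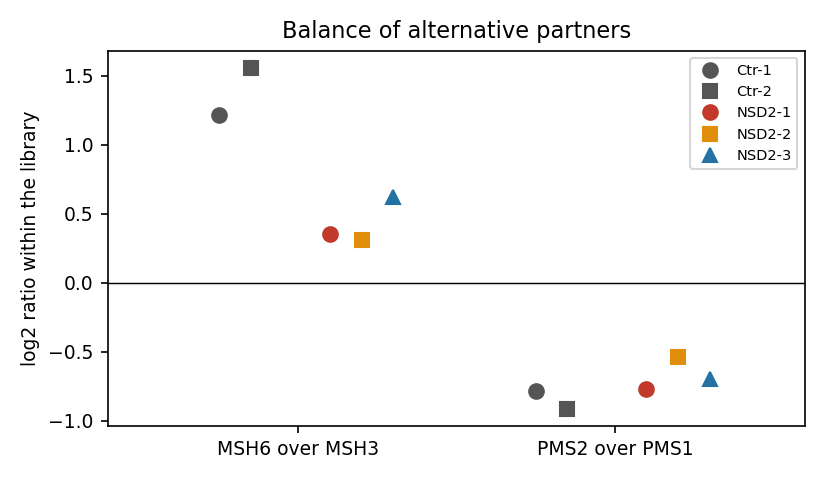
Log2 ratio of normalized counts + 1 within each library (y axis) for MSH6 over MSH3 and PMS2 over PMS1; each point is a library. For MSH6 over MSH3 the Ctr-KD libraries sit at 1.21 and 1.56 and the NSD2-KD libraries at 0.31 to 0.62. For PMS2 over PMS1 the NSD2-KD libraries, at -0.77 to -0.54, lie above both Ctr-KD libraries, at -0.91 and -0.78.

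Levels between genes were compared per kilobase of the canonical transcript. In Ctr-KD cells MSH6 was the highest, at 38.0 ± 0.89 normalized counts per kb (SD, n = 2). PMS1 (15.6 ± 0.92) and MSH3 (14.0 ± 2.71) followed, and their ranges overlapped. PMS2 was at 5.32 ± 0.67 and MLH3 at 3.83 ± 0.95, with counting errors of 19.1% and 18.1% per library. The ranges of PMS2 and MLH3 did not overlap in Ctr-KD cells, but they did in NSD2-KD cells. In NSD2-KD cells MSH6 was at 21.1 ± 2.54 per kb (SD, n = 3) and still the highest in every library, above MSH3 (15.02 ± 2.31), PMS1 (13.7 ± 1.76), PMS2 (5.28 ± 0.81) and MLH3 (4.33 ± 0.67). The distance between MSH6 and MSH3 was therefore smaller than in Ctr-KD cells in each NSD2-KD library. These levels rest on transcript lengths of 4265 bases for MSH6, 4443 for MSH3, 3156 for PMS1, 5093 for PMS2 and 7820 for MLH3.

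**Figure D3:**
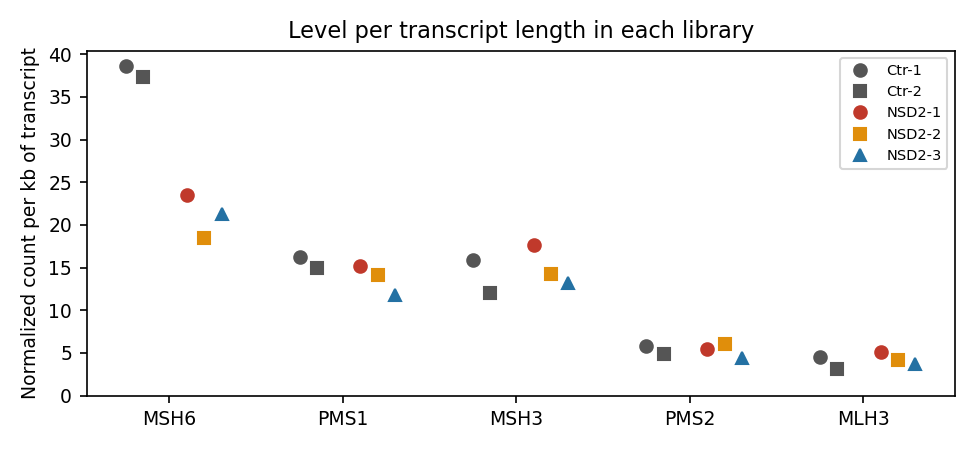
Normalized count per kb of the canonical transcript (y axis, from 0) of the 5 genes in each library, ordered by the Ctr-KD mean; each point is a library. MSH6 goes from 38.0 per kb in Ctr-KD to 21.1 in NSD2-KD cells and remains the highest of the 5.

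Some reads of these genes can be shared with others. In the PMS2 transcript, 18.5% of all 150-base windows, the length of the reads, also occur in transcripts of another gene. A gene annotated without a symbol holds all 916 of these windows, and the pseudogene PMS2CL holds 267 of them. Only uniquely mapped reads were kept. The PMS2 level is therefore a lower estimate. The 8 listed PMS2 pseudogenes summed to 43.8 and 38.1 normalized counts in Ctr-KD and 56.1, 44.8 and 43.0 in NSD2-KD cells, and PMS2CL was at 3.09 to 7.36 over the 5 libraries. For PMS1 and MLH3 the share of such windows was 0%. For MSH6, 530 exonic bases (12.4% of the transcript) overlap exons of FBXO11, an F-box gene on the other strand, and the library kit does not mark strand. FBXO11 was at 171 and 165 in Ctr-KD cells and 138, 166 and 156 in NSD2-KD cells, a log2 difference of -0.13 (SE 0.14, adjusted p = 0.830 from limma), and its part in the MSH6 value was not tested.

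PMS2 and PMS1 each start within 1000 bases of a gene on the other strand, so each of these pairs is read outward from a common stretch of promoter. AIMP2, a scaffold of the aminoacyl-tRNA synthetase complex, starts 223 bases from PMS2. AIMP2 was at 89.6 and 101.9 in Ctr-KD and 62.6, 74.3 and 82.0 in NSD2-KD cells, without overlap, and the log2 difference of -0.39 (SE 0.18, adjusted p = 0.560 from limma) did not pass. ORMDL1, a regulator of sphingolipid synthesis, starts 111 bases from PMS1. ORMDL1 was at 73.4 and 71.0 in Ctr-KD and 58.9, 68.8 and 62.5 in NSD2-KD cells, also without overlap. Its log2 difference of -0.19 (SE 0.17, adjusted p = 0.795 from limma), beside -0.19 for PMS1, did not pass either. Of all tested genes, 13.9% had every NSD2-KD library below both Ctr-KD libraries. Taken within each library, the log2 ratio of AIMP2 over PMS2 differed by -0.38 between the groups (p = 0.3, exact permutation test) and that of ORMDL1 over PMS1 by 0.0071 (p = 1, exact permutation test). These 2 ratios were chosen after the values were seen. MSH6 and MLH3 had no such neighbour.

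**Figure D4:**
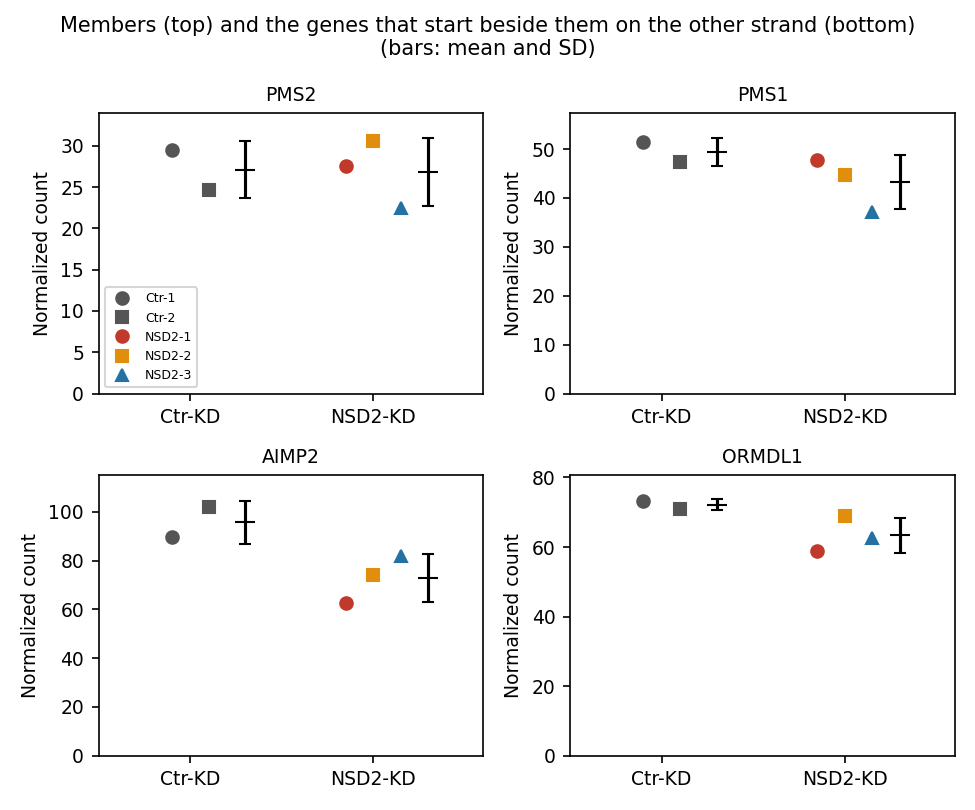
Normalized counts (y axis, from 0) of PMS2 and PMS1 (top) and of AIMP2 and ORMDL1, which start beside them on the other strand (bottom); points are libraries, and the horizontal mark with whiskers is the mean with its SD. AIMP2 lies at 62.6 to 82.0 in NSD2-KD cells, and ORMDL1 at 58.9 to 68.8, each below both Ctr-KD libraries, as do 13.9% of all tested genes. PMS2 and PMS1 overlap between the groups.

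The later steps of mismatch repair were described with lists by role. These lists were drawn up with earlier results of these data known, so their counts are a description and not a test. Whether their genes moved apart from the S phase genes listed further below was not tested. For the clamp and its loader, all 6 genes (PCNA and RFC1 to RFC5) had a lower mean log2 value in NSD2-KD cells, with a median log2 difference of -0.67. None of the 6 passed the adjustment in limma or limma-voom, and edgeR and DESeq2 each called 1 (RFC3). Over all genes, edgeR called 0.0972% lower and DESeq2 0.404%. In limma 3 of 6 were lower at an unadjusted p under 0.05, beside 4.99% of all tested genes. RFC3, a small subunit of the clamp loader, had 54.3 and 59.7 normalized counts in Ctr-KD and 22.1, 20.8 and 19.5 in NSD2-KD cells. This was a log2 difference of -1.41 (SE 0.21, adjusted p = 0.0876 from limma), and the 3 siRNAs lay close together. PCNA, the sliding clamp, had 222 and 217 in Ctr-KD and 136, 132 and 196 in NSD2-KD cells, with the NSD2-3 library nearest to the controls (log2 difference -0.52, SE 0.18, adjusted p = 0.423 from limma). RFC5 differed most between siRNAs, with 22.1% of the Ctr-KD mean for NSD2-2 and 101.6% for NSD2-3.

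For excision and strand protection, EXO1, RPA1, RPA2 and RPA3 were all lower in every NSD2-KD library than in both Ctr-KD libraries. Their median log2 difference was -0.48, and 13.9% of all tested genes lay below both controls in this way. None passed the adjustment in limma, edgeR, DESeq2 or limma-voom. In limma 3 of 4 were lower at an unadjusted p under 0.05, beside 4.99% of all tested genes. EXO1, the exonuclease, had 29.5 and 40.1 normalized counts in Ctr-KD and 17.5, 9.83 and 23.4 in NSD2-KD cells (log2 difference -1.06, SE 0.37, adjusted p = 0.413 from limma). RPA1, the large subunit of the single-strand binding complex, had 260 and 272 in Ctr-KD and 219.9, 169 and 198 in NSD2-KD cells (log2 difference -0.45, SE 0.14, adjusted p = 0.368 from limma).

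For resynthesis and ligation, 4 of 5 genes had a negative difference, with a median of -0.69 on the log2 scale. None passed the adjustment with any of the 4 tools. In limma 3 of 5 were lower at an unadjusted p under 0.05, beside 4.99% of all tested genes. POLD3, an accessory subunit of polymerase δ, had 43.8 and 46.3 normalized counts in Ctr-KD and 25.8, 20.8 and 22.5 in NSD2-KD cells (log2 difference -0.95, SE 0.22, adjusted p = 0.239 from limma). LIG1, which seals the nick, had 124.8 and 124.5 in Ctr-KD and 83.7, 48.1 and 74.2 in NSD2-KD cells (log2 difference -0.89, SE 0.24, adjusted p = 0.282 from limma). The polymerase subunits were not alike. POLD1, the catalytic subunit, had a log2 difference of -0.69 (SE 0.21), while POLD2 was at -0.014 (SE 0.13) and POLD4 at 0.12 (SE 0.18). MSH4 and MSH5, MutS homologs of meiosis, had at most 1 read in any library.

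**Figure D5:**
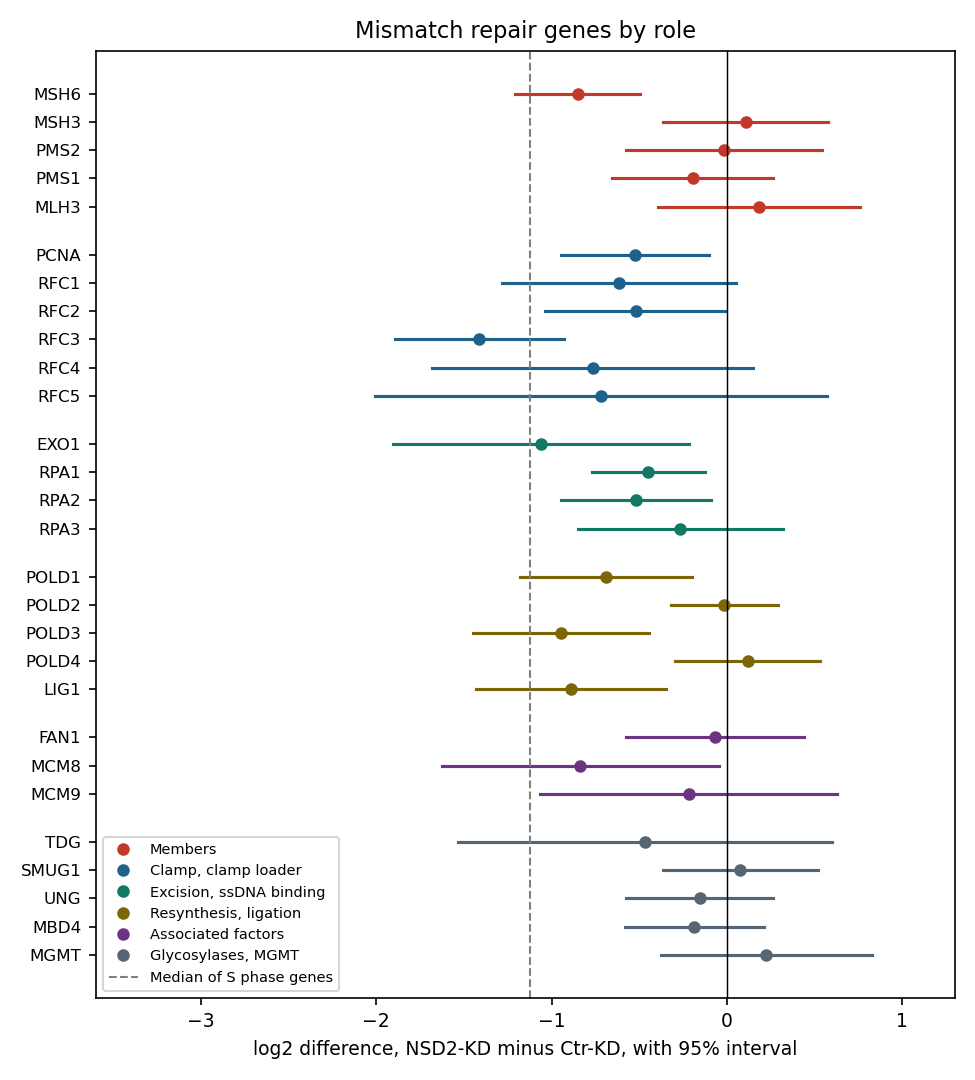
Log2 difference, NSD2-KD minus Ctr-KD (x axis), of mismatch repair genes grouped by role; points are the limma estimates, bars their 95% intervals, and the dashed line the median of the S phase genes. MSH6 is at -0.85 and MSH3, PMS2, PMS1 and MLH3 run from -0.19 to 0.18, with the MSH6 interval overlapping those of PMS1 and PMS2. Among the plotted genes MSH6 lies between MCM8 at -0.84 and LIG1 at -0.89. Of the resynthesis genes, POLD2 is at -0.014 and POLD4 at 0.12.

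A list of S phase genes is given beside MSH6. It was drawn up with earlier results of these data known, so its shared direction and the place of MSH6 beside it are a description and not a test. Of 35 listed, 32 passed the filter, and all 32 had a negative log2 difference, with a median of -1.13. Of all 11313 tested genes, 5822 had a negative difference. Limma called 2 of the 32 lower (RRM2 and UHRF1), edgeR 4, limma-voom 3 and DESeq2 10 of the 28 with an adjusted p. Over all genes the shares called lower were 0.053%, 0.0972%, 0.0619% and 0.404% in the same order. Their summed normalized counts were 3706 and 3815 in Ctr-KD and 1917, 1384 and 2042 in NSD2-KD cells. Their median log2 difference was -0.90 with NSD2-1, -1.52 with NSD2-2 and -0.93 with NSD2-3. MSH6 was lowest with NSD2-2, as were the sum and the median of the list, and highest with NSD2-1, where the median but not the sum of the list was highest among the 3 siRNAs. By size of difference, 25 of the 32 were further below 0 than MSH6, and 31 or 32 were further below 0 than each of the other 4 genes. In their promoters, 20 of 35 held an E2F motif, beside MSH6, MSH3 and PMS2 among the 5 genes. The part of the S phase share of cells in the MSH6 value was not tested.

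Likeness was measured as the root mean square distance over the 5 libraries, on the log2 scale centred on the Ctr-KD mean, among 5120 genes whose normalized counts averaged 100 or more. The nearest to MSH6 were RRM1, the large subunit of ribonucleotide reductase (distance 0.11), TOPBP1, a replication checkpoint scaffold (0.12), and IQGAP3 (0.13). RRM1, itself on the S phase list, had 308 and 327 normalized counts in Ctr-KD and 199, 176 and 163 in NSD2-KD cells. MSH3 and MLH3 shared TBC1D14 and the kinase gene YES1 among their nearest 3, at distances of 0.046 to 0.074. PMS2 had 102 genes within 0.1 and PMS1 had 113, more than MSH3 (18), MLH3 (9) and MSH6 (0). The nearest were UBE2Q1, a ubiquitin-conjugating enzyme (0.042), for PMS2 and COX7A2, a respiratory chain subunit (0.029), for PMS1. MSH3, PMS2, PMS1 and MLH3 themselves averaged 64.8, 27.0, 45.7 and 32.3 normalized counts, so counting noise is a large part of their patterns. Whether their nearest genes are closer than noise alone would give was not tested.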

How the data were processed

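After trimming (Trimmomatic), the authors aligned single-end reads of 150 bases to hg19 by HISAT2, took the unique alignments with SAMtools, counted them per gene with featureCounts and divided them by 1 DESeq2 size factor per library. The annotation and strand setting of the counting are not given in the sources used here. The signal used here is this deposited normalized count. A second deposited table holds the authors' fold changes and p-values and was not used. Reads were recovered from the steps of the values.

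The main test, on log2(normalized count + 1) over genes with a mean of at least 10, was limma (3.58.1) with a mean-variance trend, two-sided, 2 against 3 libraries without covariates, Benjamini-Hochberg adjusted over all 11313 genes, with a threshold of 0.05. A log2 difference on this scale understates changes of low genes. edgeR (4.0.16), DESeq2 (1.42.0) and limma-voom on the recovered reads, other pseudocounts, filters and scalings, a replicate block and each library left out were alternatives. Fits were tested on simulated data. A change shared by all genes would be hidden by the size factors.

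The 5 genes, the role lists, the markers and the rules for named genes (overlapping genes, genes starting within 1000 bases on the other strand, PMS2 pseudogenes, the 3 nearest genes per member, and up to 4 genes a list by adjusted p or where a sentence turns on one) were chosen with earlier results of these data known. Sequences, exons and lengths came from GRCh37 and GENCODE v44 lifted to it. Overlapping and neighbouring genes were described for MSH6, PMS2, PMS1 and MLH3, and those of MSH3 are not reported here.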

Additional observations from a re-analysis of the deposited data

How the results depend on the processing

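MSH6 was lower in NSD2-KD cells in all 16 alternatives (-0.93 to -0.76 on the log2 scale) and passed the threshold in none. PMS1 kept its sign in all 15. The other 3 genes changed sign under some settings without passing the threshold in any. PMS2 was at 0.058 after quantile normalization. With each replicate left out in turn, MSH3 ranged from -0.089 to 0.30 (below 0 also without NSD2-KD replicate 1, at -0.012), PMS2 from -0.14 to 0.11 and MLH3 from -0.066 to 0.43. MSH6 over MSH3 and PMS2 over PMS1 kept their signs under every pseudocount and with each replicate left out. PMS1, PMS2 and MLH3 had no value at a minimum mean of 50.

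The number of genes called over the whole table depended on the setting. Against 6 lower and 4 higher (10 in all), limma without the trend called 1 and 0 (594 and 444 at an unadjusted p under 0.05; 1 in all), edgeR 11 lower (16 in all), DESeq2 43 and 11 (54 in all), and quantile normalization 8 higher. With each replicate left out, the counts ran from 0 to 22 lower, 0 to 8 higher and 0 to 30 in all. Both counts were 0 without Ctr-KD replicate 1 (240 and 194 at an unadjusted p under 0.05) and without Ctr-KD replicate 2 (224 and 193), and 0 genes were higher without NSD2-KD replicate 2 (501 at an unadjusted p under 0.05). Without a Ctr-KD replicate the lone control is assumed to vary like the NSD2-KD libraries. The counts were 10 lower and 6 higher without NSD2-KD replicate 1, and 22 and 8 without NSD2-KD replicate 3. The cause was not tested.

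With the replicate block, 84 genes were lower and 18 higher (102 in all), MSH6 was at -0.86 (adjusted p = 0.0618 from limma) and PMS2 at 0.10. NSD2-KD replicate 3 has a block to itself and adds nothing to the difference there. Ctr-KD and NSD2-KD libraries of the same number did not deviate together (r = -0.015 and -0.027 across tested genes). The Ctr-KD libraries differed by little more than counting noise (chi-square 1.05 per degree of freedom). These correlations therefore cannot show whether libraries of the same number were prepared together.

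Depth limits PMS2, MLH3 and PMS1 most, at 136, 164 and 231 reads over the 5 libraries.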

Other observations

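Genes that act beside mismatch repair were also measured, in lists likewise drawn up with earlier results of these data known. Of FAN1, MCM8 and MCM9, a nuclease and helicases associated with it, none passed the adjustment in limma, edgeR, DESeq2 or limma-voom. In limma 1 of 3 was lower at an unadjusted p under 0.05, beside 4.99% of all tested genes. MCM8, a helicase that works in recombination, had 70.5 and 54.5 normalized counts in Ctr-KD cells and 39.6, 20.8 and 48.8 in NSD2-KD cells. It was below both controls in each library, as were 13.9% of all tested genes (log2 difference -0.84, SE 0.34, adjusted p = 0.510 from limma). FAN1, a nuclease for interstrand crosslinks, had 65.7 and 70.0 in Ctr-KD cells and 49.7, 79.7 and 68.3 in NSD2-KD cells, a range that holds both controls. MCM9 had a log2 difference of -0.22 (SE 0.37), with 10.9 normalized counts for NSD2-2 and 26.7 for NSD2-1.

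Of the glycosylases TDG, SMUG1, UNG and MBD4, which remove mispaired bases, and MGMT, which reverses alkylated guanine, none passed the adjustment with any of these 4 tools and 0 of 5 had an unadjusted p under 0.05 in limma. Their median log2 difference was -0.15, with values from -0.47 to 0.22. TDG, the thymine glycosylase, differed most between siRNAs, at 24.8 normalized counts with NSD2-1, 96.1 with NSD2-2 and 55.6 with NSD2-3, beside 66.7 and 76.1 in the Ctr-KD libraries. SMUG1, a uracil glycosylase, was level at 39.1 and 43.2 in Ctr-KD and 46.9, 40.4 and 43.0 in NSD2-KD cells. The cause of the spread of TDG between siRNAs was not tested.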
